A study of Mus musculus with 3 samples.

Results

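The transporters that carry lactate and glucose across cell membranes were examined in the retinal pigment epithelium (RPE) of adult mice, a sheet of pigmented cells that separates the photoreceptors from the choroid. The set held 8 genes of the 15596 genes that could be named on the array. They were the monocarboxylate transporters Slc16a1, Slc16a3, Slc16a7 and Slc16a8, their chaperone basigin (Bsg), and the glucose transporters Slc2a1, Slc2a3 and Slc2a4. Members were found through the RefSeq accession of each mouse probe, which gave 9 probes, 2 for Bsg and 1 for each of the other 7 genes. The study profiled RPE sheets of C57BL/6 mice aged 2.5 to 3 months on 1-colour mouse oligonucleotide slides, with 3 samples in 1 group, which the series describes as independent biological replicates. There was no treated, mutant or control group, and no genetic change or treatment of the mice is labelled. The sheets were freed from the eyecup with trypsin and shaking and were not sorted. In such bulk samples few cells of a type and little RNA per cell cannot be told apart.

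Photoreceptors have no blood supply of their own on the outer side, and the RPE passes them glucose from the choroidal capillaries. They turn much of this glucose into lactate, which the RPE takes up and hands on to the blood. Facilitative glucose carriers of the Slc2 family let glucose move down its gradient, whereas monocarboxylate carriers of the Slc16 family move lactate or pyruvate together with a proton. Several monocarboxylate carriers need basigin, a membrane glycoprotein, to reach the cell surface.

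Each value is the median foreground minus the median local background of a spot, in scanner units. It was set against 94 spots of the class named mCN, which were treated as negative controls; the sources used here do not describe this class. For the test, intensities were normalized and put on a log2 scale, and the level of a probe is its log2 intensity minus the 95th percentile of the mCN spots of the same array. A level of 0 is thus the detection threshold, and a probe was called when limma placed it above 0 at an adjusted p under 0.05. Levels of different probes were not ranked, because hybridisation differs from probe to probe. Overall brightness fell to a mean of 476 and 316 on replicates 2 and 3, against 831 on replicate 1, and the 95th percentile of the mCN spots was 133, 72.4 and 53.9 on replicates 1, 2 and 3. Replicates 1 and 2 were scanned together and replicate 3 on another occasion, with the unexplained word redip in its image name. As a check of the tissue label, 14 of 16 measured RPE markers were detected (median level 5.73 over 24 probes), and Best1 and Tyr were the 2 that were not.

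Of the transporter probes, 3 of 9 were called (33.3%), those of Slc16a8, Bsg and Slc2a1. Over all mouse probes the share was 25.5%. By gene, 3 of 8 were detected (37.5%), and 39.8% of all named genes had a called probe. The members' shares were near those of the slide as a whole. The same 3 probes were above the threshold on all 3 arrays, as were 27.2% of all mouse probes. The called probes were at mean levels of 5.96 to 7.86 and the other 6 at -1.12 to 0.018, with none in between. The median level of the 9 probes was -0.19, and that of all mouse probes was -0.74.

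**Figure D1:**
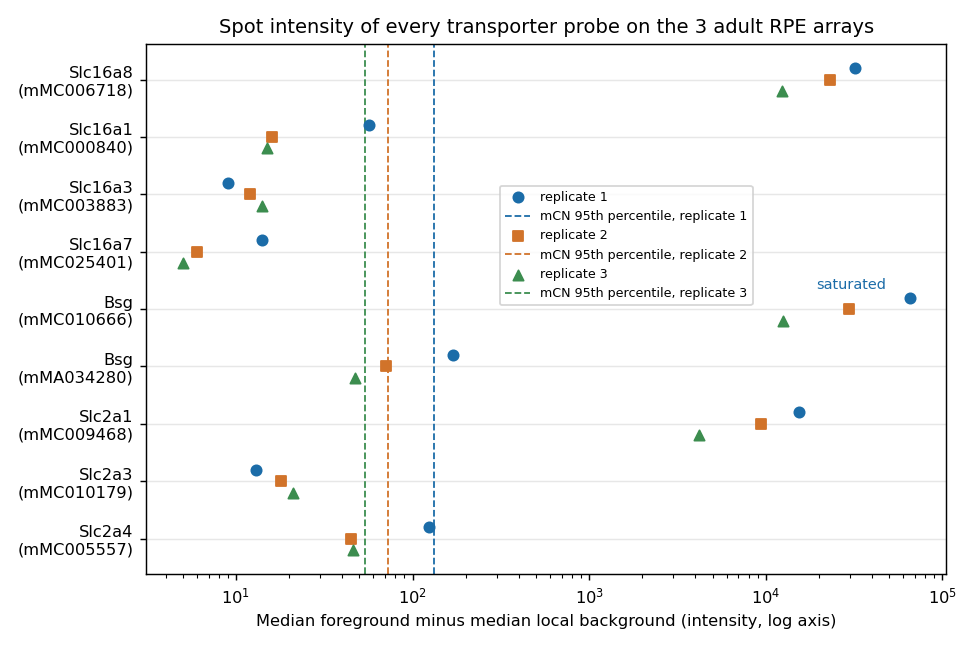
Background-subtracted spot intensity of the 9 transporter probes (horizontal axis, log scale) on the 3 adult RPE arrays, 1 symbol per replicate. Dashed lines mark the 95th percentile of the mCN spots of each array. The probes of Slc16a8, Slc2a1 and 1 of Bsg lie between 4189 and 65472, and the other 6 probes lie between 5 and 170.

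Slc16a8 encodes MCT3, a lactate carrier of the basolateral membrane of the RPE that is found in few other tissues. Its spot read 31970, 23191 and 12354 on replicates 1, 2 and 3. These intensities were 241, 320 and 229 times the 95th percentile of the mCN spots. No mCN spot reached it on any array (0 of 94 on each). The level was 7.28 ± 0.21 (SD, n = 3), far above the threshold in limma (adjusted p = 7.91e-07). After quantile normalization the 3 arrays were at log2 intensities of 14.33, 14.57 and 14.22, a range of 0.35. Replicate 1 was then 0.12 above replicate 3, against 1.18 above it under median scaling.

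Slc16a1 encodes MCT1, the carrier on the apical side of the RPE, where it faces the photoreceptors. Its spot read 57, 16 and 15 on replicates 1, 2 and 3, below the mCN 95th percentile of every array, and 7, 28 and 45 of the 94 mCN spots were at least as bright. The level was -0.79 ± 0.22 (n = 3), and it was not called (limma adjusted p = 1.0). The lactate exporter of strongly glycolytic cells, Slc16a3 (MCT4), read 9, 12 and 14, at a level of -1.03 ± 0.093. Slc16a7 (MCT2), a carrier of high affinity known from neurons, read 14, 6 and 5, at -1.12 ± 0.082. All 3 carriers were within the spread of the mCN spots, with 43 to 90 of these spots at least as bright as Slc16a7 and 48 to 67 as bright as Slc16a3. At this sensitivity they were not detectable, which does not show that the transcripts were absent. Each was measured by a single probe, so a probe that hybridises poorly could not be recognised by a second one.

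Bsg, the chaperone, was measured by 2 probes that share 1 accession, and they disagreed. The brighter probe (mMC010666) read 65472, 29629 and 12467 on replicates 1, 2 and 3, and on replicate 1 its foreground was at the scanner maximum, so that value is a lower bound. Its level was 7.86 ± 0.73 (n = 3, limma adjusted p = 6.95e-06). The other probe (mMA034280) read 170, 71 and 47 and lay at the threshold itself, with 3, 6 and 6 mCN spots at least as bright. Its level was 0.018 ± 0.17, and it was not called (limma adjusted p = 1.0). The position of each probe on the transcript was not analysed here. A split call was common on these slides, since 1304 of the 1830 genes with 2 probes and at least 1 call had exactly 1 called (71.3%). That share counts calls only, and how often 2 probes of a gene lay as far apart as these was not counted.

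Slc2a1 encodes GLUT1, the main glucose carrier of the RPE and also of capillaries with a tight barrier. Its spot read 15507, 9357 and 4189 on replicates 1, 2 and 3, which was 117, 129 and 77.8 times the mCN 95th percentile. Again 0 of 94 mCN spots were as bright on any array. The level was 5.96 ± 0.28 (n = 3, limma adjusted p = 1.32e-06). Of the vascular endothelial markers, 1 of 12 was detected, Flt1 at 1.31 ± 0.32. Among their 16 probes 2, 3 and 5 were above the threshold on replicates 1, 2 and 3, and their summed intensity after the scaling of the authors was 2714, 3278 and 3904. The endothelial markers Pecam1 (-0.087 ± 0.27), Cdh5 (-0.76 ± 0.21) and Kdr (-1.0 ± 0.14) were not called. Of the erythroid markers, 4 of 7 measured were detected, among them Hba-a1 at 7.04 ± 0.13. Their summed intensity was 70501, 73091 and 75868 on replicates 1, 2 and 3, while the scaled Slc2a1 spot was at 33636, 34046 and 21156. Of the Mueller glia markers 5 of 9 were detected, and of those of choroid fibroblasts and melanocytes 3 of 9 (39.8% over all named genes). The Mueller glia list was split. In list order, Glul (4.43 ± 0.16), Dkk3 (4.42 ± 1.19) and Car14 (6.57 ± 0.26) were among those called. Aqp4 (-0.67 ± 0.015), Gfap (-0.98 ± 0.098) and Slc1a3 (0.14 ± 0.97) were among those not called. The part of any of these cell types in the Slc2a1 signal was not tested.

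The other glucose carriers were not called. Slc2a3 (GLUT3), a carrier of high affinity in neurons, read 13, 18 and 21 on replicates 1, 2 and 3, with 48, 23 and 17 mCN spots at least as bright, and its level was -0.89 ± 0.14. The insulin-responsive carrier of muscle and fat, Slc2a4 (GLUT4), was nearer to the threshold. It read 124, 45 and 46, with 6, 8 and 6 mCN spots at least as bright, and its level was -0.19 ± 0.17 (limma adjusted p = 1.0 for both carriers). With the 90th percentile of the mCN spots as the threshold, Slc2a4 was called at 0.49 ± 0.22 (adjusted p = 0.00914), as was the second Bsg probe at 0.71 ± 0.21 (adjusted p = 0.00233). Under that threshold 38.6% of all mouse probes were called. Markers of muscle and fat were detected in 0 of 9 cases in limma (1 at an unadjusted p under 0.05), with levels from -1.17 to 0.22.

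**Figure D2:**
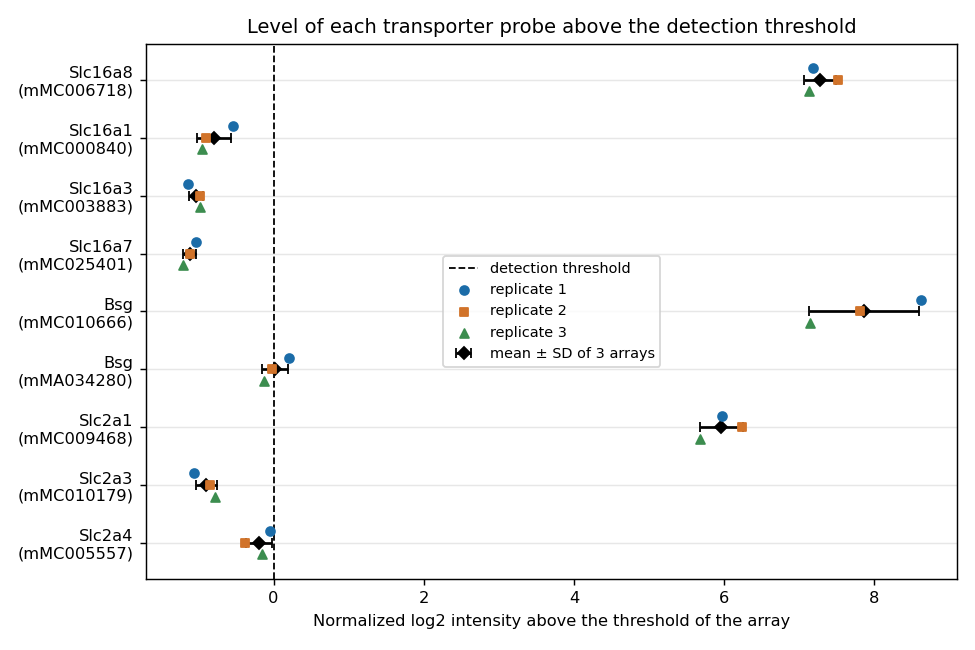
Normalized log2 intensity of each transporter probe above the detection threshold of its array (horizontal axis). Coloured symbols are the 3 replicates, black diamonds and bars the mean ± SD, and the dashed line the threshold. The 3 called probes have mean levels of 5.96 to 7.86, and of the other probes only the second one of Bsg crosses the line, on replicate 1.

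The difference between arrays depended on the normalization for every called member. After quantile normalization the brighter Bsg probe was at log2 intensities of 15.77, 14.86 and 14.23 on replicates 1, 2 and 3, a range of 1.54 that rests on the saturated spot of replicate 1. Slc2a1 was at 13.12, 13.29 and 12.76, a range of 0.54. Between replicates 2 and 3, where no member spot was saturated, the log2 difference was 0.63 for Bsg, 0.54 for Slc2a1 and 0.35 for Slc16a8. Between replicates 1 and 3 it was 1.54 for Bsg, 0.36 for Slc2a1 and 0.12 for Slc16a8. Median scaling gave larger differences between replicates 1 and 3, of 2.20 for Bsg, 1.68 for Slc2a1 and 1.18 for Slc16a8. With no normalization between arrays they were 2.39, 1.87 and 1.37. As levels above the threshold of each array, the median-scaled differences were 1.58, 1.07 and 0.56, against 1.47, 0.29 and 0.046 after quantile normalization. In the intensities as scaled by the authors, Bsg was 142016, 107806 and 62964 on replicates 1, 2 and 3. Slc16a8 was 69347, 84381 and 62394 on the same scale, and Slc2a1 was 33636, 34046 and 21156. On that scale replicate 2 was 1.71 times replicate 3 for Bsg and 1.61 times for Slc2a1. After quantile normalization, the SD of the level exceeded that of 66.2% of called mouse probes for Slc2a1 and of 46.4% for Slc16a8. For the brighter Bsg probe it exceeded that of 98.1%, a value that includes the saturated spot of replicate 1. The photoreceptor markers, of which 4 of 18 were detected, had a summed scaled intensity of 54358, 49338 and 66747, and 8, 10 and 12 of their 23 probes were above the threshold on replicates 1, 2 and 3. Their part in the differences between arrays was not tested, and with 1 array in the second scan session that session and replicate 3 cannot be told apart.

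**Figure D3:**
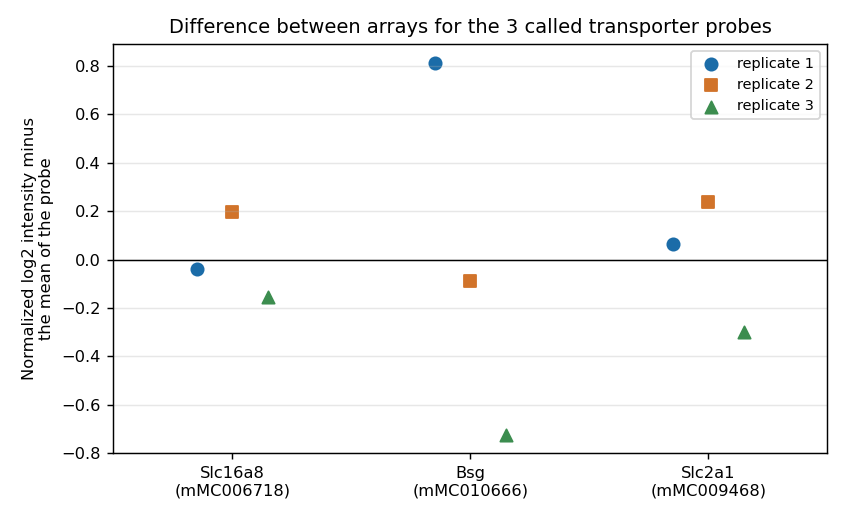
Normalized log2 intensity of the 3 called transporter probes minus the mean of the same probe (vertical axis), with 1 symbol per replicate. After quantile normalization Bsg spans 1.54, with a saturated spot on replicate 1, and Slc16a8 and Slc2a1 span 0.35 and 0.54. Replicates 1 and 3 then differ by 1.54, 0.12 and 0.36 for Bsg, Slc16a8 and Slc2a1, and by 2.20, 1.18 and 1.68 under median scaling.

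Of the other Slc16 genes, 3 of 9 measured were detected (33.3%; 39.8% over all named genes). Among them were Slc16a6 (4.89 ± 0.26), known to carry ketone bodies, and the carnitine and creatine carrier Slc16a9 (6.19 ± 0.29). Slc16a4 (-1.15 ± 0.14), the aromatic amino acid carrier Slc16a10 (0.20 ± 0.14) and Slc16a11 (0.53 ± 0.68) were not called. Of the other Slc2 genes, 2 of 7 were detected (28.6%). The intracellular carrier Slc2a8 was at 1.58 ± 0.29 on 1 of its 3 probes, and Slc2a10 was at 0.29 ± 0.065 (limma adjusted p = 0.0198), just over the threshold. The count for this list was 1 without replicate 1, without replicate 2, with plain background subtraction, median scaling or no normalization between arrays. It was also 1 with the 99th percentile threshold, in the value table of the authors and with the methods' threshold of 500. It was 3 without replicate 3 and with the 90th percentile threshold. The count was also 3 with p-values adjusted over probes above the threshold on at least 1 array, and for probes above it on all 3 arrays. The liver carrier Slc2a2, the fructose carrier Slc2a5 and Slc2a6 were at -1.03, -1.10 and -1.02 and were not called. Of the sodium-coupled carriers of glucose and lactate, 0 of 5 were detected in limma (0 at an unadjusted p under 0.05), but 2 of 5 were without replicate 1, with median scaling, with no normalization between arrays and with the methods' threshold of 500, and 1 of 5 with the 90th percentile threshold or without spots marked as not found.

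The basigin relatives were split. Nptn (neuroplastin), another chaperone of monocarboxylate carriers, was at 3.93 ± 0.063 and was called, whereas Emb (embigin), the partner of MCT2, was not (0.16 ± 1.31). Both main lactate dehydrogenase subunits were called, Ldha at 5.26 ± 0.22 and Ldhb at 7.38 ± 0.41, and of the 4 genes of this list the testis form Ldhc (-0.78 ± 0.20) and Ldhd (-0.18 ± 0.26), which acts on D-lactate, were not. Genes for the entry of pyruvate into mitochondria were detected in 8 of 11 cases (72.7%). The pyruvate carrier subunit Mpc2 was at 2.94 ± 0.023 and the pyruvate dehydrogenase subunits Pdha1 and Pdhb at 3.65 ± 0.21 and 1.81 ± 0.45. Not called were Mpc1 (-0.73 ± 0.070), the partner of Mpc2, Pdhx (-0.98 ± 0.15) and the inhibitory kinase Pdk4 (0.10 ± 0.34).

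Of the genes that trap or release glucose, 3 of 6 were detected, the hexokinases Hk1 (4.89 ± 0.30), Hk2 (3.75 ± 2.52) and Hkdc1 (1.65 ± 0.18). The phosphatases G6pc (-0.88 ± 0.11) and G6pc3 (0.65 ± 0.58) were not called. Among regulators of glucose carriers, 5 of 9 were detected (55.6%). Txnip, an arrestin-like protein that draws GLUT1 from the cell surface, was at 3.62 ± 0.53. Aspscr1, which tethers GLUT4, was at 2.41 ± 0.38, and Tbc1d1, a Rab regulator of GLUT4 traffic, at 6.69 ± 0.20. The hypoxia factor Hif1a (-0.24 ± 0.037), the Txnip relative Arrdc4 (1.25 ± 1.24) and the insulin receptor Insr (-0.064 ± 0.092) were not called. Over the lists of other genes together, 24 of 53 measured genes were detected (45.3%).

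**Figure D4:**
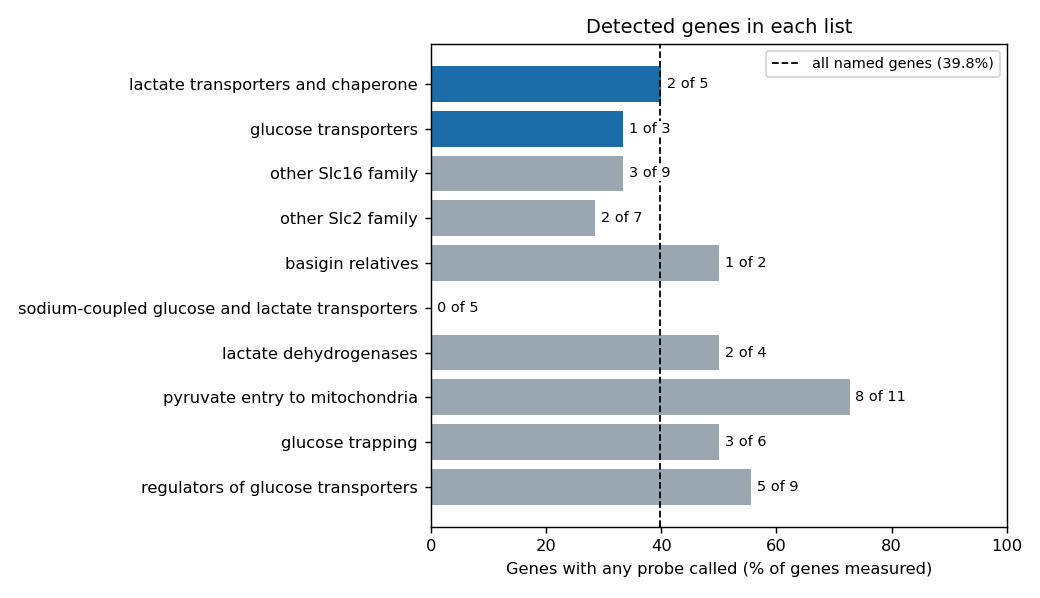
Share of measured genes with any probe called (horizontal axis, %), with counts beside the bars, for the transporters (blue) and the fixed lists of other pathway genes (grey). The dashed line is the share over all named genes, 39.8%, and the bars run from 0% for sodium-coupled carriers to 72.7% for pyruvate entry.

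Of the 53 other genes, 5 varied more between the arrays than any transporter probe, and all 5 read lowest on replicate 1. Hk2, which many tumours and photoreceptors use to drive glycolysis, read 337 on replicate 1 and 4121 and 3249 on replicates 2 and 3. The sodium-coupled lactate carrier Slc5a8 read 7, 220 and 524 on replicates 1, 2 and 3, and the sodium-coupled glucose carrier Slc5a1 read 72, 192 and 643. Emb read 5, 101 and 176, and Arrdc4 read 156, 204 and 441. These 5 were picked for their spread, so it is a description. Among the uncalled transporters, Slc16a3 (-1.14) and Slc2a3 (-1.05) were lowest on replicate 1, whereas Slc16a1 (-0.54), Slc16a7 (-1.04), Slc2a4 (-0.051) and the second Bsg probe (0.20) were highest there. The 6 uncalled probes read only 5 to 170, near the mCN spots, so no pattern between arrays is drawn from them.

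The calls of the 3 detected members held under every setting that was tested in limma, with levels of 6.45 to 8.05 for Slc16a8, 7.03 to 8.63 for the brighter Bsg probe and 5.14 to 6.73 for Slc2a1. Slc16a1, Slc16a3, Slc16a7 and Slc2a3 were called under none of the settings that tested them. All 4 were below the threshold on every array and so were outside the adjustment over probes above it on at least 1 array, and Slc16a3, Slc16a7 and Slc2a3 were not tested without the spots marked as not found. The intensity threshold of the methods, 500 on the authors' normalized scale, was applied here to the mean of the 3 arrays with no test. It called 3 of the 9 transporter probes, those of Slc16a8 and Slc2a1 and the brighter one of Bsg, and 24.5% of all probes in the value table.

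**Figure D5:**
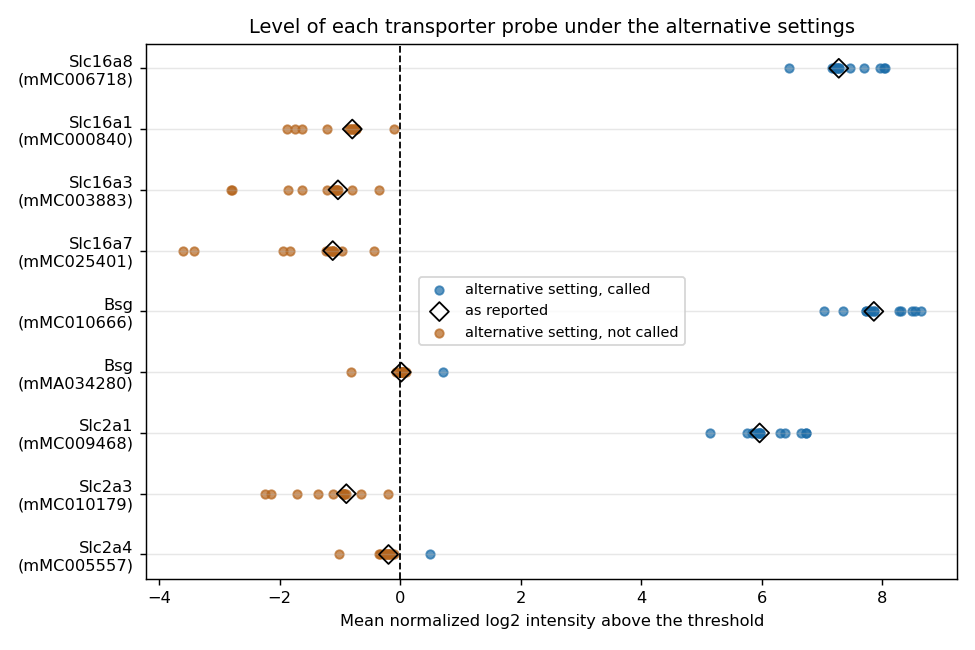
Mean log2 level above the threshold of each transporter probe (horizontal axis) as reported (open diamonds) and under each alternative tested in limma (dots, blue where called and brown where not). The called state differs from that reported for Slc2a4 and the second Bsg probe alone, each with the 90th percentile threshold.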

How the data were processed

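Biotin-labelled complementary RNA was made from total RNA and hybridised to MEEBO (mouse exonic evidence-based oligonucleotide) slides, which were scanned in 1 colour. The authors deposited 1 export per array from GenePix Pro 4.1.1.4 with raw spot intensity on a linear scale, and a spot flag, which is a score of the scanner software per the file headers. A deposited table gives intensity as normalized by the authors, which equalled the background-subtracted intensity (values under 1 set to 1) multiplied by 2.17, 3.64 and 5.05 for replicates 1, 2 and 3. The normalization is not named in the sources used here. The table held 34288 of 35078 mouse probes, with column medians of 73.7, 98.2 and 116. No column was left unmapped (0 columns).

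Background was corrected with normexp (offset 50, all spots; limma 3.58.1 in R 4.3.3), and intensities were taken to log2 and quantile-normalized over mouse probes and mCN spots. Level minus threshold was tested with lmFit and eBayes (intercept only, one-sided), and p-values were adjusted over the mouse probes by Benjamini-Hochberg. Of these probes 8931 were called (9576 at an unadjusted p under 0.05). The fit and the adjustment were also run on simulated levels, with the same noise for every probe and no difference between arrays. That run could not test the normalization or the threshold. The SD of a level includes that of the threshold. Precision is limited by the number of arrays, and the tests rest on the spread between these 3 samples alone.

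Probes were named by accession through a RefSeq gene table (GRCm38.p6, names only). A single name was found for 23017 probes and none for 12061, of which 6395 had no accession, so further probes of these genes may exist. No genome build is named, and coordinates are not given. A gene was detected when any probe was called, and a gene outside the set is given by the probe with the largest limma statistic. Named were all members and, in list order, up to 3 called and 3 uncalled genes of each list, of which 2 are not reported here. No likeness of pattern was ranked, since 3 arrays give 3 points. The members and lists were chosen with earlier results of these data known. Alternatives concerned background, normalization, threshold, call rule, replicates and flags.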

Additional observations from a re-analysis of the deposited data

How the results depend on the processing

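The number of called transporter probes was 3 under every alternative except the 90th percentile threshold, where it was 5 (of all mouse probes 13548 were then called). Detected member genes numbered 2 to 4. The count was 2 where more than 50% of the probes of a gene, or every probe, had to be called. Bsg was then not detected, and 27.7% and 26.2% of all named genes were. Near the threshold, Slc2a4 changed sign with the 90th percentile (0.49, called). The second Bsg probe was at -0.81 with the 99th percentile, at -0.041 with the mean plus 2 SD of the mCN spots, at 0.71 (called) with the 90th percentile, and at -0.062 to 0.10 when 1 replicate was left out, below 0 without replicate 1. The median SD of the member probes, 0.17 as reported, was 0.35 with plain background subtraction, 0.36 with median scaling, with no normalization between arrays and with the 99th percentile, and 0.38 in the value table of the authors. It was 0.066 to 0.20 when 1 replicate was left out. Leaving out spots marked as not found was chosen after seeing the data. The planned naming of probes through a gene number or platform table was not run, since the probe names hold accessions only and no such table was given. No paired analysis was possible because the samples form 1 group. Signal close to that of the mCN spots limits what can be said of Slc16a1, Slc16a3, Slc16a7, Slc2a3 and Slc2a4.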
